A study of Rattus norvegicus with 16 samples.

Results

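The tumour necrosis factor (TNF) family was followed here across brain and blood after head injury. It was taken as its ligands, its receptors, the TRAF adaptors, of which many bind the receptors inside the cell, and the genes named for them. Members were taken by gene symbol: the Tnfsf, Tnfrsf and Tnfaip series, Traf symbols with a number, and Tnf, Lta, Ltb, Ltbr, Fas, Cd40, Cd40lg and Cd27. They came to 46 of the 16638 genes that have a row of their own in either tissue, and divided into 13 ligands, 20 receptors, 5 TRAF adaptors, 3 TRAF-interacting genes and 5 TNF-induced (Tnfaip) genes. These roles were read from the symbols and not checked gene by gene. All 46 had a row in the CA1 table and 44 in the table of white blood cells. Cd27 and Tnfrsf4 shared a row with neighbouring genes in the latter, so no white blood cell value is given for them. RNA came from hippocampal field CA1 and from white blood cells (WBC) of male Sprague-Dawley rats of 200 to 240 g at the start. The rats had received fluid percussion injury (TBI), in which a pulse of fluid strikes the brain, or sham surgery, were tested for learning 1 week later and were then killed. Each tissue gave 4 sham and 4 TBI libraries, 16 poly-A RNA libraries in 4 groups, with no genetic change in any. The labels give neither the age of the rats nor whether a library pools several. Levels are in FPKM, which scales fragments by the length of the transcript and the size of the library.

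TNF ligands are mostly made as trimers on the cell surface, and many are cut free to act at a distance. Their receptors fall into those with an intracellular death domain, such as Tnfrsf1a and Fas, which can recruit caspases, and those that bind TRAF proteins and switch on the transcription factor NF-κB and the stress kinases, while decoy receptors such as Tnfrsf11b bind ligand without signalling. In blood the family carries much of the talk between T cells, B cells and myeloid cells, and in brain its members are made by microglia, astrocytes, vessels and neurons.

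Libraries matched their tissue labels. The summed FPKM of 6 pyramidal neuron markers was 4394 to 6381 in CA1 sham libraries, 4694 to 5164 in CA1 TBI libraries and 6.86 to 17.7 in WBC. The sum of B cell markers was 437 to 873 in WBC and 0.120 to 0.487 in CA1, where neither B cell nor natural killer markers reached a mean of 1 FPKM. In WBC, erythroid markers summed to 10455 to 16689 in sham and 4287 to 10371 in TBI, and platelet markers to 6169 to 8408 and 1937 to 5717, so both were lower in every TBI library than in every sham library. The part of these shifts in the values of the members was not tested. Choroid plexus markers, from tissue beside the hippocampus, summed to 18.0 to 2730 across CA1 libraries. Ttr made up most of that sum (3.42 to 2694 FPKM) except in sham 1. Kcnj13 of the same list did not follow it, at 13.7 to 18.0 FPKM in CA1 and 8.41 to 11.9 in WBC. Summed over all rows, FPKM came to 1726840 to 3520670 in CA1 and 482286 to 832725 in WBC, and the number of fragments behind a value is unknown. The 10 highest rows of a library held 69.0% to 82.8% of that sum in CA1 and 18.6% to 35.8% in WBC. Over rows with a mean of 1 FPKM or more, a library's median ratio to the geometric mean of its tissue was 0.980 to 1.02. CA1 and WBC are mixtures of cells, and in such bulk samples fewer cells of a type and less RNA per cell cannot be told apart.

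NF-κB, the factor that many of these receptors switch on, also drives genes of the family, so the DNA just upstream of each member was searched for the letters it binds. RefSeq promoters of the rat build GRCr8 were at hand for 35 of the 46 members. In the 250 bases before the gene start, the κB consensus, searched on both strands, was found in 8 of 35 members (22.9%) and in 6.33% of all 33469 promoters of the table. The members' windows were also richer in G and C, with a median of 55.6% against 51.2%, and the part of that in the match counts was not tested. Capitals mark the match, with up to 10 bases on each side, 1 match per member, read on the strand of the gene. Lta and Tnfrsf8 each have a second match shifted by 1 base, which overlaps the first.
Fas (chr1:241211905-241211932, + strand): ccctgcttGGGGCCTCCCtctgctcagg
Lta (chr20:3623423-3623452, + strand): tctaagccctGGGGGCTTCCccaggcccta
Ltb (chr20:3634060-3634089, - strand): tagggtgttcGGAAAGTCCCaggcagggga
Tnfrsf8 (chr5:162451768-162451797, - strand): tcaaaacgaaGGGGAGCCCCctgagtgcgt
Tnfsf14 (chr9:2160247-2160276, - strand): acatcgagcaGGGGCTTCCCcatccatctc
Traf3 (chr6:136027029-136027048, + strand): ggcggcccgcGGGGATTTCC
Traf3ip2 (chr20:44565792-44565821, + strand): ccagaagcccGGGGCATTCCtcacagtttt
Traf7 (chr10:14056695-14056723, - strand): cacagtgcccGGGGACTTCCggctcctgt
The Ltb match reads in the opposite direction to the gene and lies 25 to 16 bases before its start, and those of Traf3 and Traf7 lie 10 to 1 and 19 to 10 bases before theirs. Of the 8 genes, Lta, Fas and Tnfsf14 were at 1 FPKM or more in WBC only, Ltb, Traf3, Traf3ip2 and Traf7 in both tissues, and Tnfrsf8 in neither. A match is a stretch of letters, not a measured binding site.

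Members also differed in upstream CpG pairs, the sites of DNA methylation, which are dense at the promoters of many widely expressed genes. The 250 bases before Ltb, a ligand of lymphoid cells, hold 2 CpG pairs. Those before Traf3, an adaptor at 6.60 FPKM in CA1 (its higher row) and 9.90 in WBC, hold 47. Tnfsf13 and Tnfaip8l2 also hold 2 pairs, and like Ltb they were at 1 FPKM or more in both tissues. Ltb and Traf3, at the ends of the range of the 35 members, are printed to show the contrast, with each CpG in capitals.
Ltb (chr20:3634055-3634304, - strand): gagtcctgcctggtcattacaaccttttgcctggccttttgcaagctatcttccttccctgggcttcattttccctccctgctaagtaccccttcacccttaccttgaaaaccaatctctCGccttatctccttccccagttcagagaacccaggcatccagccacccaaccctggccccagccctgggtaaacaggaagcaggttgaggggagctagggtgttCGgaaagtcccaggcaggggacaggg
Traf3 (chr6:136026799-136027048, + strand): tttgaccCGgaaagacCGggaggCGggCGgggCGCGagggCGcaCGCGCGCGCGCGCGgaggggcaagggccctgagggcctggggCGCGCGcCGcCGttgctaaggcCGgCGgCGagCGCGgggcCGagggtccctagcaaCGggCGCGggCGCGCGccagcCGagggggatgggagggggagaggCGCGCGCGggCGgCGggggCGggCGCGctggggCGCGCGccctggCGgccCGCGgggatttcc
The median was 25 CpG pairs in the 4 TRAF adaptors with a promoter entry, 9 over all 35 members and 5 over all promoters. Members at 1 FPKM or more in both tissues had a median of 12 (n = 17), those in WBC only 7.5 (n = 8) and those in CA1 only 8 (n = 3).

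Brain and blood differed in which members they expressed. Of the 44 members with a row in each table, 19 had a mean of at least 1 FPKM in both tissues, 12 in WBC only, 5 in CA1 only and 8 in neither. All 5 TRAF adaptors and all 3 TRAF-interacting genes were in the first class. Traf1, Traf5 and Tnfaip3 (A20) had no row under those symbols in either tissue, so their levels are not known here. The tables were normalized separately, so the levels below are set side by side without a test.

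**Figure D1:**
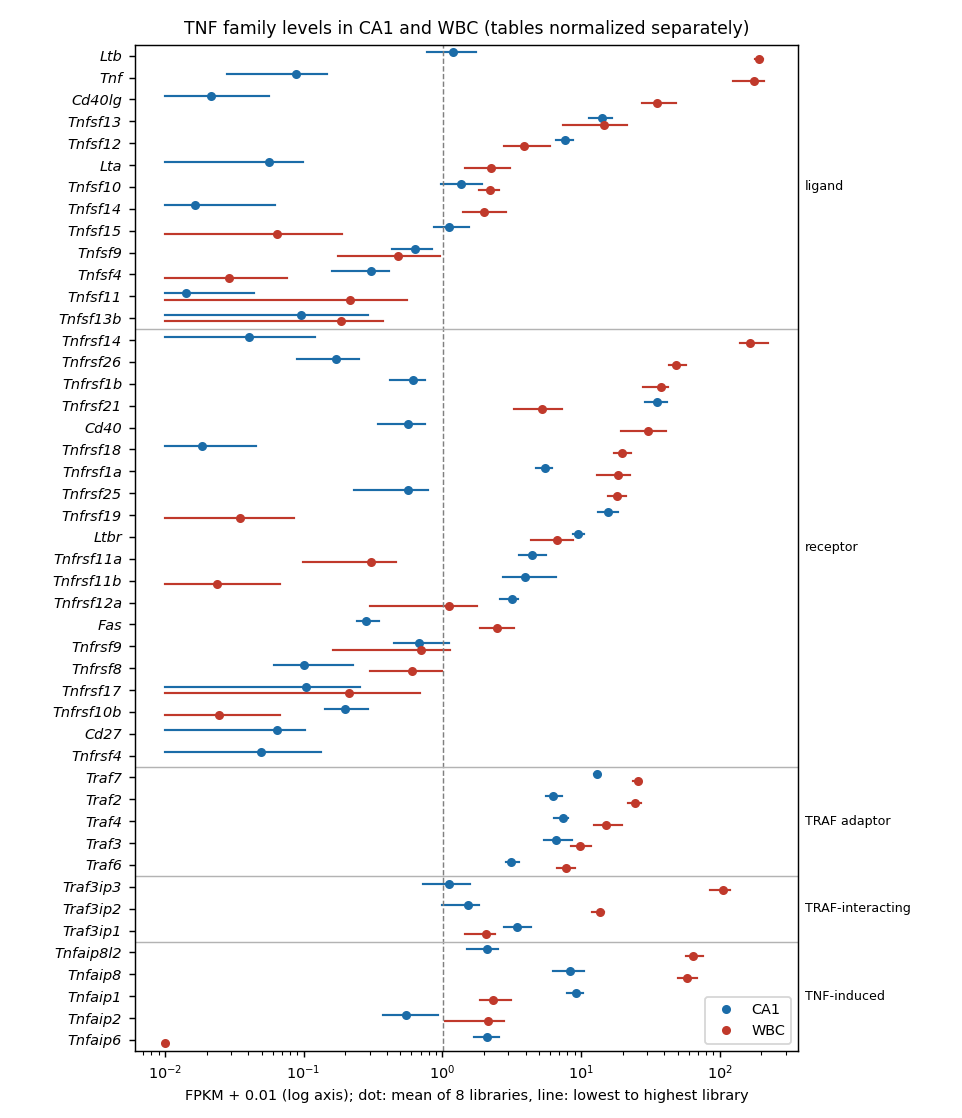
Mean FPKM of each member in CA1 and WBC, ordered by role, on a log axis after adding 0.01 FPKM, with a dot for the mean of the 8 libraries of the tissue, a line from the lowest to the highest library, and a dashed line at 1 FPKM. The TRAF adaptors lie above the dashed line in both tissues, while Tnf, Lta, Cd40lg and Tnfrsf14 lie under it in CA1 and above it in WBC.

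Among the ligands, the lymphotoxin and TNF genes, which sit next to each other in the genome, were blood genes. With 1 row read per gene, Ltb, the membrane subunit of lymphotoxin, was the highest member in WBC at a mean of 192 FPKM (179 to 205 over the 8 libraries). It stood at 1.18 FPKM in CA1. Tnf, the founding cytokine, stood at 176 FPKM in WBC (126 to 209, the highest of its 3 rows) and at 0.0780 in CA1 (0.0179 to 0.139). Its second WBC row, at a mean of 40.3 FPKM, was not added to the first. Which of Ltb and Tnf was higher in WBC therefore depends on how the rows are read. Lta, the soluble lymphotoxin subunit, stood at 2.25 and 0.0462 FPKM. Cd40lg, the signal by which helper T cells activate B cells, stood at 35.5 FPKM in WBC and 0.0114 in CA1, where it was listed at 0 in 6 of 8 libraries. Tnfsf14 (LIGHT), a T cell ligand of Tnfrsf14 and Ltbr, stood at 1.98 and 0.00649.

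The ligands of CA1 were others. Tnfsf13 (APRIL), best known as a survival factor for plasma cells, stood at 14.1 FPKM in CA1 and at 14.7 in WBC, and Tnfsf12 (TWEAK) at 7.70 and 3.91. Tnfsf10 (TRAIL), which can trigger cell death, stood at 1.36 and 2.18 FPKM. Tnfsf15 (TL1A), a vascular ligand, was the only ligand at 1 FPKM or more in CA1 (1.11) and not in WBC (0.0541). Tnfsf4, Tnfsf9, Tnfsf11 and Tnfsf13b stayed under 1 FPKM in both tissues, with means of 0.0042 to 0.624.

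Receptors were divided in the same way. In WBC the highest was Tnfrsf14 (HVEM), a receptor of lymphocytes, at 167 FPKM (141 to 225), against 0.0304 in CA1. Tnfrsf26 followed at 48.8, then the TNF receptor of immune cells, Tnfrsf1b, at 38.1, and Cd40, the receptor for Cd40lg on B cells and myeloid cells, at 30.4. These 3 stood at 0.161, 0.602 and 0.553 FPKM in CA1. Tnfrsf18 (GITR), a T cell receptor, stood at 19.7 FPKM in WBC and 0.00855 in CA1.

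In CA1 the highest receptor, and the highest member, was the death domain receptor Tnfrsf21 (DR6), known in neurons, at 35.5 FPKM (28.8 to 41.5), against 5.25 in WBC. Tnfrsf19 (TROY), a receptor of the nervous system, stood at 15.7 and 0.0248 FPKM. Ltbr, the lymphotoxin β receptor, stood at 9.59 FPKM in CA1 and 6.73 in WBC, and the widely expressed TNF receptor Tnfrsf1a at 5.55 and 18.6. Fas stood at 0.273 and 2.47, and Cd27, a lymphocyte receptor, at 0.0546 in CA1.

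Ligands and their receptors did not always share a tissue. Tnfsf15 was found in CA1 (1.11 FPKM) and its receptor Tnfrsf25 (DR3) in WBC (18.2, against 0.555 in CA1). RANK (Tnfrsf11a, 4.45 FPKM) and its decoy osteoprotegerin (Tnfrsf11b, 3.95) were found in CA1, while their ligand RANKL (Tnfsf11) stood at 0.0042 there and was listed at 0 in 7 of 8 libraries. In WBC these 3 genes stood at 0.295, 0.0136 and 0.207 FPKM. Other pairs were found together: Cd40lg with Cd40 in WBC, and Tnfsf12 with its receptor Tnfrsf12a (Fn14), at 7.70 and 3.16 FPKM in CA1 and 3.91 and 1.11 in WBC. The TRAIL receptor Tnfrsf10b stood at 0.190 FPKM in CA1 and 0.0146 in WBC, under its ligand Tnfsf10 in both.

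The 5 adaptors with a row were expressed in both tissues. Traf7 was the highest in each, at 13.0 FPKM in CA1 and 25.7 in WBC, and Traf2, which carries the signal of both TNF receptors, stood at 6.32 and 24.7. Traf4 stood at 7.36 and 15.3, Traf3, a brake on the alternative NF-κB pathway, at 6.60 and 9.90, and Traf6 at 3.10 and 7.79. Traf3 had a second row in CA1, at a mean of 5.91 FPKM and not added to the first, and only 1 row in WBC. Which tissue held more Traf3 therefore depends on how its rows are read. Traf3ip3, a lymphocyte gene, stood at 1.11 FPKM in CA1 and 106 in WBC, Traf3ip2 (Act1, the adaptor of the interleukin 17 receptor) at 1.52 and 13.8, and the cilium gene Traf3ip1 at 3.45 and 2.06. Of the TNF-induced genes, Tnfaip8l2 (TIPE2), which restrains immune cells, stood at 2.11 and 64.3 FPKM, and Tnfaip8 at 8.37 and 57.9. Tnfaip1, a ubiquitin ligase adaptor, was higher in CA1 (9.18) than in WBC (2.30). Tnfaip6 (TSG-6), a hyaluronan-binding protein, stood at 2.09 FPKM in CA1 and was listed at 0 in all 8 WBC libraries.

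CA1, TBI against sham. No member passed a threshold of 0.05 on the adjusted p in CA1. Of the 46 members, 24 had a mean of at least 1 FPKM and were tested, and limma called 0 of them and 0.00683% of all 14637 rows. At an unadjusted p under 0.05, 2 members were lower in TBI (background 2.6%) and 0 higher (background 2.54%). In 2 members every TBI library lay under every sham library (background 1.6%), and in 0 members above (background 1.28%). These counts of 2 are too small to set against the background, and their difference from it was not tested. The differences lay above 0 in 9 members and under 0 in 15 (46.7% of all rows above 0), with a median of -0.05 on the log2 scale against -0.01 over all rows. Limma's adjusted p ran from 0.891 to 0.994.

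**Figure D2:**
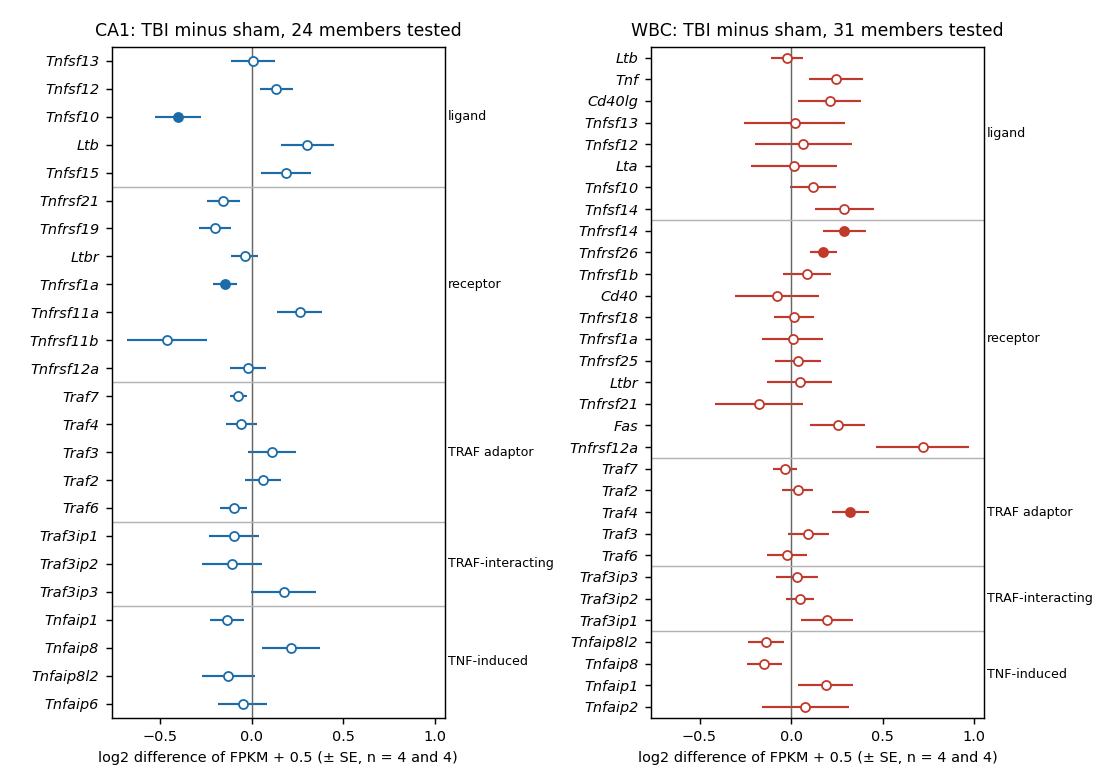
TBI minus sham for every tested member, in CA1 and in WBC, as log2(FPKM + 0.5) with its standard error (n = 4 libraries per group). Filled points mark members whose groups do not overlap, Tnfsf10 and Tnfrsf1a in CA1 and Traf4, Tnfrsf14 and Tnfrsf26 in WBC.

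The smallest p in CA1 was that of the death ligand Tnfsf10. It stood at 1.94, 1.71, 1.56 and 1.27 FPKM in sham libraries 1 to 4 and at 0.991, 1.16, 0.976 and 1.25 in the TBI libraries. The lowest sham library lay just above the highest TBI library, so the groups touched without overlapping. The log2 difference was -0.40 ± 0.13 (SE, n = 4, limma adjusted p = 0.891), on the scale of log2(FPKM + 0.5), which understates changes at such low levels.

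The TNF receptor Tnfrsf1a was also lower in every TBI library. Its sham libraries held 6.16, 5.67, 5.93 and 5.63 FPKM and its TBI libraries 5.49, 4.75, 5.37 and 5.38, a difference of -0.15 ± 0.07 (limma adjusted p = 0.891). TBI 2 stood apart from the other TBI libraries. Of 6 endothelial markers, Flt1 (-0.30), Kdr (-0.47) and Tek (-0.25) were likewise lower in every TBI library, as were 1.6% of all rows. Pecam1, Cldn5 and Cdh5 lay at -0.24 to -0.14 with overlapping groups. The 6 pyramidal neuron markers lay at -0.33 to -0.09, and Rbfox3 among them was lower in every TBI library. The 5 astrocyte markers lay at -0.37 to -0.03 with overlapping groups, and microglia and oligodendrocyte markers on both sides of 0. The part of vessel or other cells in the differences of Tnfsf10 and Tnfrsf1a was not tested. Tnfrsf19 stood at 16.8 ± 1.54 (SD, n = 4) in sham and 14.6 ± 1.36 in TBI (log2 -0.20), and Tnfrsf21 at 37.5 ± 2.91 and 33.6 ± 3.72 (-0.16), both with overlapping groups. Without TBI 2 the difference of Tnfrsf21 was -0.09. Of the 7 receptors tested in CA1, 6 lay under 0.

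The decoy and its receptor differed in sign. Tnfrsf11b held 6.57, 5.43, 2.80 and 4.13 FPKM in sham and 3.53, 2.94, 3.47 and 2.72 in TBI, with a difference of -0.46 ± 0.22, which was -0.30 without sham 1. Its highest library, sham 1, also had the highest sum of endothelial markers (125 FPKM, against 72.1 to 88.8 in the other 7), of which Cldn5 is the largest part, and whose part in the difference was not tested. Tnfrsf11a held 4.58, 3.76, 3.55 and 4.08 FPKM in sham and 5.64, 3.88, 4.67 and 5.46 in TBI, a difference of 0.26 ± 0.12 with overlapping groups.

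Of the 5 ligands tested in CA1, 4 lay above 0. Ltb averaged 1.00 ± 0.203 FPKM in sham and 1.35 ± 0.270 in TBI (log2 0.30 ± 0.15), Tnfsf12 at 7.33 ± 0.842 and 8.07 ± 0.607 (0.13), Tnfsf15 at 1.00 and 1.23 (0.18), and Tnfsf13 at 14.03 and 14.1 (0.01). The adaptors lay near 0, though not nearer than every other member. Traf7 stood at 13.3 ± 0.385 and 12.6 ± 0.258 FPKM (-0.07), and the other 4 TRAF adaptors between -0.10 and 0.11. Tnfaip1 stood at 9.61 ± 0.590 and 8.75 ± 1.15 (-0.13). Tnf itself was under the filter in CA1, at 0.0580 ± 0.0358 FPKM in sham and 0.0979 ± 0.0327 in TBI, with overlapping groups.

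WBC, TBI against sham. No member passed in white blood cells either. Of the 44 members, 31 were tested, and limma called 0 of them and 0% of all 13413 rows. At an unadjusted p under 0.05, 4 members were higher in TBI (background 7.82%) and 0 lower (background 12.5%). Every TBI library lay above every sham library in 3 members (background 5.61%) and under in 0 (background 8.63%). The difference lay above 0 in 24 members and under 0 in 7, where 49.6% of all rows lay above 0, and its median was 0.05 on the log2 scale against -0.00 over all rows. After quantile normalization 28 of 31 lay above 0, with a median of 0.09 against 0.05 over all rows, which that normalization also moved upward. Limma's adjusted p ran from 0.150 to 0.982.

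**Figure D3:**
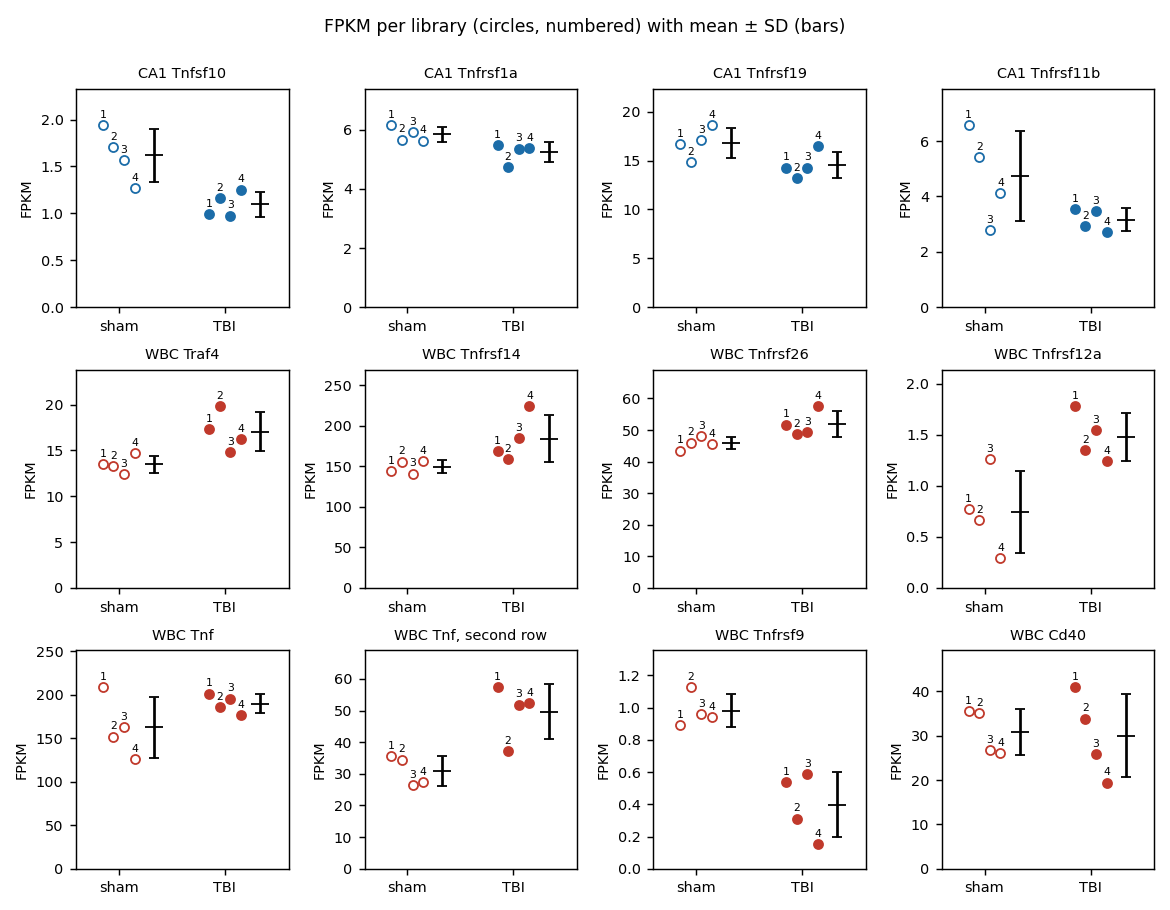
FPKM by library of members among the 10 smallest p of their tissue. For WBC the second row of Tnf, Tnfrsf9 (under the filter) and Cd40 are also shown, which are not among those 10. Circles are numbered by library, open for sham and filled for TBI, with a bar for the mean ± SD (n = 4 libraries per group). The filled circles of Traf4, Tnfrsf14 and Tnfrsf26 in WBC lie above all their open circles, and those of Tnfsf10 and Tnfrsf1a in CA1 under theirs.

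The adaptor Traf4, known for roles in cell polarity and migration, had the smallest p in WBC. It held 13.5, 13.3, 12.4 and 14.7 FPKM in sham and 17.3, 19.8, 14.8 and 16.2 in TBI. TBI 3 lay just above sham 4, and the other TBI libraries lay farther up. The log2 difference was 0.32 ± 0.10 (SE, n = 4, limma adjusted p = 0.150). The other adaptors lay near 0, with Traf2 at 24.4 ± 2.14 (SD, n = 4) and 25.0 ± 1.57 FPKM (0.04), Traf3 at 9.53 and 10.3 (0.09) and Traf7 at 26.02 and 25.4 (-0.03).

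HVEM and its ligand LIGHT both lay higher in TBI. Tnfrsf14 held 144, 156, 141 and 157 FPKM in sham and 169, 159, 185 and 225 in TBI, with TBI 2 close to the highest sham library and TBI 4 far above it. Its difference was 0.29 ± 0.12 (limma adjusted p = 0.220). A second row of Tnfrsf14, at a mean of 7.58 FPKM, lay at 0.49 ± 0.20 with overlapping groups (limma adjusted p = 0.229). Tnfsf14 stood at 1.73 ± 0.260 and 2.24 ± 0.466 FPKM with overlapping groups (0.29 ± 0.16, limma adjusted p = 0.345). Quantile normalization widened the difference of Tnfrsf14 to 0.64, and leaving out TBI 4 narrowed it to 0.19. Tnfrsf26 held 43.5, 46.0, 48.1 and 45.5 FPKM in sham and 51.7, 48.8, 49.4 and 57.6 in TBI, a difference of 0.18 ± 0.08 that was 0.34 after quantile normalization.

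Tnfrsf12a (Fn14), a receptor known for its induction in injured tissue, had the widest difference among the members tested in WBC, at levels near the filter. It held 0.769, 0.665, 1.26 and 0.289 FPKM in sham and 1.78, 1.35, 1.54 and 1.24 in TBI, and sham 3 reached into the TBI range. The difference was 0.72 ± 0.25 (limma adjusted p = 0.177). Its sham mean of 0.747 FPKM was under 1, so it was tested only because of its TBI libraries, and its count among the 4 is no support for a change. Fas, the death receptor of lymphocytes, stood at 2.20 ± 0.253 and 2.74 ± 0.550 FPKM (0.25), with overlapping groups.

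Tnf was spread over 3 rows of the WBC table. The highest row held 209, 152, 163 and 126 FPKM in sham and 201, 186, 195 and 176 in TBI. Sham 1 was the highest of all and sham 4 the lowest, so the groups overlapped, and the difference was 0.25 ± 0.15 (limma adjusted p = 0.389). It was 0.13 without sham 4 and 0.37 without sham 1. A second row of the same symbol averaged 31.0 ± 4.73 FPKM over the sham and 49.7 ± 8.78 over the TBI libraries, with every TBI library above every sham library (0.67 ± 0.16, limma adjusted p = 0.130), and the third at a mean of 1.499. The files do not say what distinguishes the rows of Tnf. With the 3 rows summed the difference was 0.32, and that of the highest row alone was 0.60 after quantile normalization. Ltb, the neighbour of Tnf, stood at 194 ± 10.9 and 191 ± 12.4 FPKM (-0.02), and Lta at 2.23 and 2.27 (0.02).

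Both genes of the Tnfaip8 family in the table lay lower in TBI. Tnfaip8 averaged 60.9 ± 6.45 FPKM in sham and 54.9 ± 4.19 in TBI (-0.15 ± 0.10), and Tnfaip8l2 at 67.4 ± 6.25 and 61.2 ± 6.03 (-0.14 ± 0.10), both with overlapping groups (limma adjusted p = 0.428 and 0.464). Both signs turned after quantile normalization, to 0.063 and 0.089.

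Of the 44 members with a row in WBC, 31 were tested. Among the others, under the filter of 1 FPKM, 1 receptor separated the groups and is given here after its values were seen. It was lower in TBI, as were 8.63% of the rows above the filter without overlap, and the share among rows under the filter was not counted. Tnfrsf9 (4-1BB), induced on activated T cells, held 0.893, 1.13, 0.961 and 0.940 FPKM in sham and 0.537, 0.312, 0.589 and 0.152 in TBI. In a fit without the filter its difference was -0.75 ± 0.18 (limma adjusted p = 0.158, where 0% of all rows were called).

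CA1 and WBC compared. The difference between the effects of TBI in the tissues was tested in 1 model over the 7570 genes measured in both. Of 19 members, limma called 0 (background 0.41%), and 4 were at an unadjusted p under 0.05 (background 19.7%), which is close to the share of all genes.

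**Figure D4:**
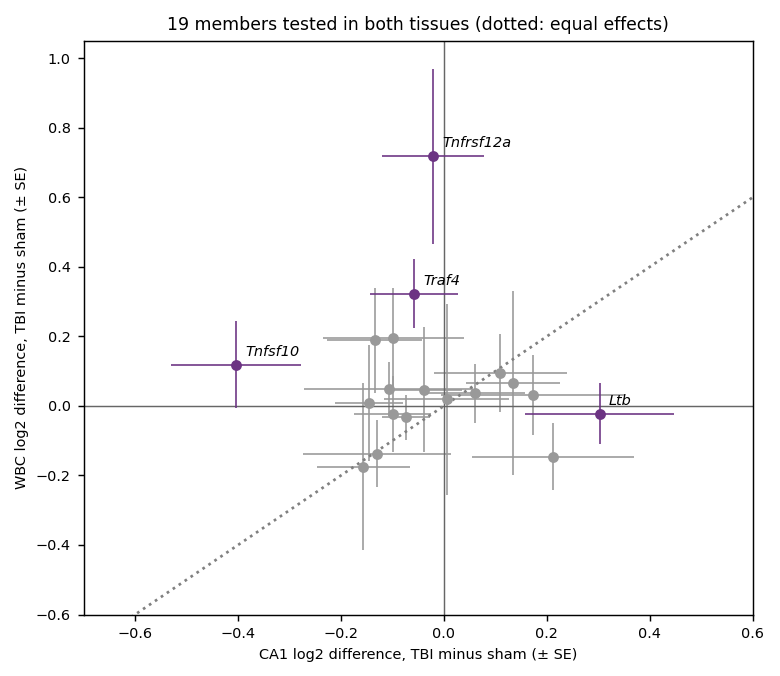
TBI minus sham in CA1 (horizontal) against WBC (vertical), on the log2(FPKM + 0.5) scale, for the 19 members tested in both tissues, with a dotted line where the effects are equal. The named purple points are the 4 members whose effects differ at an unadjusted p under 0.05, with Tnfrsf12a farthest from the line. Tnfrsf12a passed the filter in WBC only because of its TBI libraries.

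Those 4 were Tnfsf10, at -0.40 in CA1 and 0.12 in WBC (difference of effects 0.52 ± 0.16, limma adjusted p = 0.107), Traf4, at -0.06 and 0.32 (0.38 ± 0.13, limma adjusted p = 0.129), Tnfrsf12a, at -0.02 and 0.72 (0.74 ± 0.26, limma adjusted p = 0.131), and Ltb. Ltb, at 0.30 in CA1 and -0.02 in WBC (-0.32 ± 0.15, limma adjusted p = 0.236), turned to 0.040 after quantile normalization. Tnfrsf12a, with a WBC sham mean of 0.747 FPKM, passed the filter there only because of its TBI libraries. Its count among the 4 is no support for a difference between the tissues. The fifth by p was Tnfaip1, at -0.13 and 0.19 (0.32 ± 0.17, limma adjusted p = 0.301). Tnfrsf21 lay under 0 in both tissues, at -0.16 and -0.17.

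Downstream of the receptors, a list of 59 other genes of the TNF and NF-κB pathways was read from the same fits: death adaptors, kinases, NF-κB subunits and inhibitors, ubiquitin enzymes and the sheddase of TNF. In CA1 36 of the 48 with a row were tested. Limma called 0. At an unadjusted p under 0.05, 1 gene was lower and 0 higher, where 2.6% and 2.54% of all rows were, so this count is at the background. The difference lay above 0 in 15 and under 0 in 21 (46.7% of all rows above 0). The gene with the smallest p was Adam17, the protease that cuts TNF from the cell surface, at 4.81 ± 0.384 FPKM without injury and 4.02 ± 0.341 after it (-0.23 ± 0.08, limma adjusted p = 0.891). Ikbkg (NEMO), the regulatory subunit of the IκB kinase, stood at 1.74 and 1.40 FPKM (-0.23), and Tradd, the first adaptor on Tnfrsf1a, at 2.86 and 2.33 (-0.23, and -0.10 without sham 1). The NF-κB inhibitor Tnip1 stood at 16.8 and 14.9 FPKM (-0.16) and the deubiquitinase Usp21 at 13.4 and 14.6 (0.12). Map3k14 (NIK), the kinase of the alternative pathway, was higher in every TBI library, at 1.74 ± 0.114 and 2.02 ± 0.171 FPKM (0.17). It was the 1 gene of the 36 to separate upward (1.28% of all rows), and 0 separated downward (1.6% of all rows).

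In WBC 45 of the 47 genes of the list with a row were tested, and limma called 0. At an unadjusted p under 0.05, 6 were higher (7.82% of all rows) and 3 lower (12.5% of all rows), and 26 lay above 0 and 19 under (49.6% of all rows above 0). Tnip1, which binds A20 and restrains NF-κB, was lower in every TBI library (-0.40, limma adjusted p = 0.143, and -0.23 after quantile normalization). Map3k14 and Tnip2 were higher in every TBI library, both by 0.22. So 2 of the 45 separated upward (5.61% of all rows) and 1 downward (8.63% of all rows). Faslg, the ligand of Fas, held 4.07 ± 0.434 FPKM in the sham group and 5.87 ± 1.29 in the TBI group (0.46 ± 0.16, limma adjusted p = 0.179). The sum of natural killer markers was 200 to 256 FPKM in sham and 230 to 410 in TBI, highest in TBI 1 as was Faslg (6.92), and its part in the Faslg values was not tested. The caspase 8 inhibitor Cflar lay at 0.26 and the IκB gene Nfkbib at -0.49.

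Within a group, WBC libraries varied widely in several members. Sham 4 was the lowest of the 8 libraries in 9 of the 31 members tested (29.0%) and in 9.56% of all rows. Tnfsf13 held 21.4, 15.2, 15.95 and 7.48 FPKM in the sham libraries and 13.0 to 15.8 in TBI, and Ltbr 8.69, 6.65, 7.09 and 4.37 in sham and 6.20 to 7.31 in TBI. Tnfrsf1a was lowest in sham 4 at 13.1 FPKM (17.0 to 22.5 in the other 7), as were Tnfrsf1b at 28.0 (36.2 to 42.7) and Tnfrsf21 at 3.28 (3.47 to 7.33). These 5 genes were picked after their values were seen.

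The sum of monocyte markers was 1092, 1017, 929 and 711 FPKM in sham and 701, 1067, 947 and 854 in TBI. Lyz2 makes up most of that sum (594 of 701 FPKM in TBI 1) and was lowest in TBI 1. Of the other 5 markers, Cd14 (1.82 FPKM), Csf1r (30.3), Cd68 (20.9) and Cx3cr1 (5.08) were lowest in sham 4, as the 5 members were, and Fcgr1a was lowest in TBI 4 (18.2) and next lowest in sham 4 (18.5). The T cell marker sum was highest in TBI 4 (1195 FPKM), as were Cd40lg (48.1) and Tnfrsf18 (22.9). Of the T cell markers, Cd3d and Cd8a were highest in sham 3 (162 and 156 FPKM, against 152 and 125 in TBI 4). The other T cell markers were highest in TBI 4. The B cell sum was lowest in TBI 4 (437 FPKM, against 621 to 873 in the others), as was Cd40 (19.4, against 25.8 to 41.0). Cd40lg, Tnfrsf18 and Cd40 were not chosen for this comparison by a rule set in advance. The part of cell composition in these values was not tested.

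**Figure D5:**
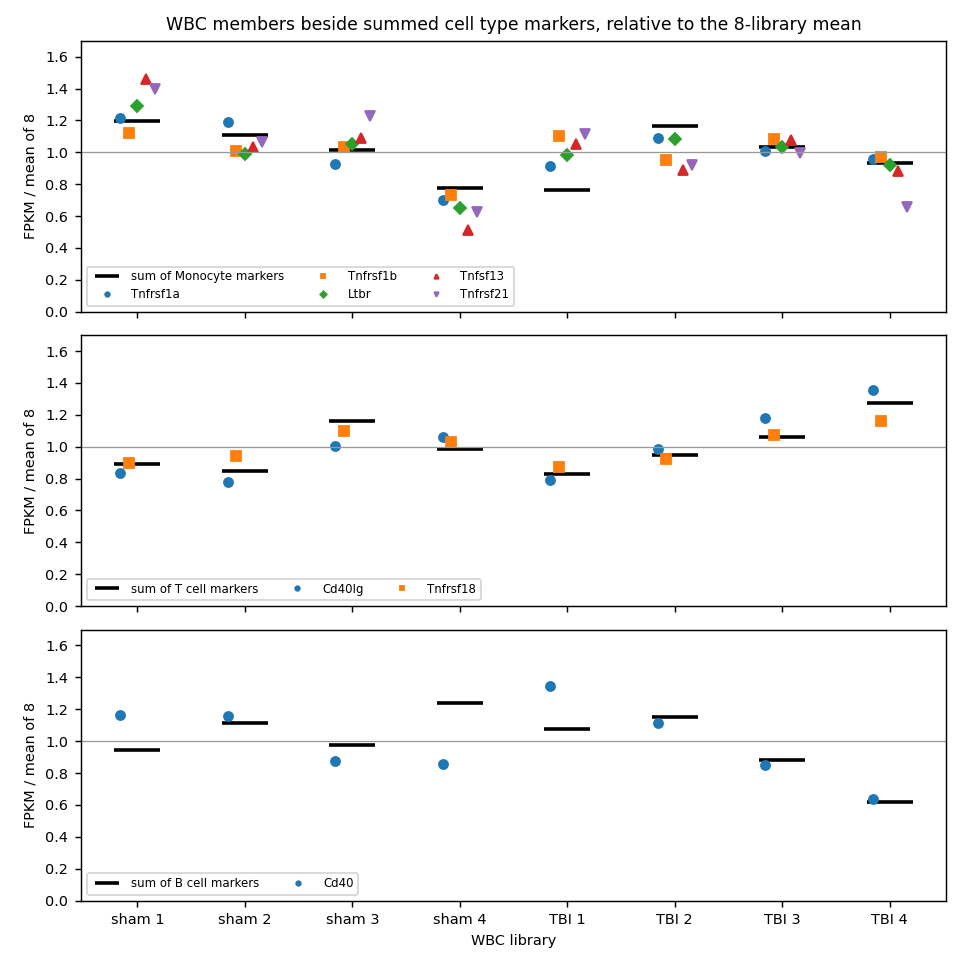
Values in the 8 WBC libraries divided by their mean over the 8, with the summed markers of monocytes (top), T cells (middle) and B cells (bottom) as black dashes beside members that vary between libraries. In the top panel sham 4 is the lowest library for all 5 members, at 0.511 of the mean for Tnfsf13. In the bottom panel Cd40 and the B cell sum are lowest in TBI 4, at 0.638 and 0.619, and stand apart in sham 4, at 0.854 and 1.24.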

How the data were processed

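Libraries were made from poly-A RNA with random priming, per the labels' protocols. The deposited values are FPKM, 1 table per tissue, made by the authors from TopHat, Bowtie, Cufflinks and Cuffdiff output on build rn5, per the submitters' processing notes, with versions and normalization settings not given in the sources used here. FPKM carries no fragment counts, so depth is unknown and no counting interval is given.

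Rows with a mean of at least 1 FPKM over the 8 libraries of a tissue and status OK in each were fitted with limma 3.58.1 (R 4.3.3; trend, 2-sided) as log2(FPKM + 0.5), with Benjamini-Hochberg adjustment over all rows and a threshold of 0.05. Members were read from the fits of the whole tables and all had status OK. Where rows share a symbol, the highest mean stands for the gene. The difference of effects is the tissue by treatment term of 1 model. The script was tested on simulated data. Libraries are numbered within each group, nothing says that they are separate animals or that equal numbers are the same rat, and the p-values speak only of the spread among these libraries, which may be technical.

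Named genes are the 10 members with the smallest p per tissue, the 3 highest of each role per tissue, the 5 smallest p between tissues, up to 8 members per tissue at 1 FPKM or more there and under 0.1 in the other, a short list of well-known members, and the 6 pathway genes with the smallest p per tissue. Others are named as the partners of these or for their level. Members and lists were chosen with earlier results of these data known. The alternatives were other pseudocounts (0.1 and 1), a minimum of 5 FPKM or no filter, rows of every status, median-ratio and quantile normalization, no trend, sample weights, a replicate block and leaving out each library. Summing rows of 1 symbol was added after the data were seen.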

Additional observations from a re-analysis of the deposited data

Results flagged for a closer look

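In 3 of 102 groups of 4 libraries, 1 library lay far from the other 3 (its gap to the nearest, over the group's range, was above Dixon's critical value); chance does this in about 1 group in 20. Tnfrsf1a stood at 4.75 FPKM in CA1 TBI 2, against 5.37 to 5.49 in the other TBI libraries. Tnfaip8l2 stood at 70.2 FPKM in WBC TBI 2, against 57.3 to 59.3. Traf3ip2 stood at 12.1 FPKM in WBC sham 1, against 14.01 to 14.09 in the other sham libraries.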

How the results depend on the processing

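Limma called 0 members, and 0 genes of the pathway list, under every alternative run. Of 726 differences of named genes recomputed, 723 kept their direction and their side of the threshold, and 3 turned, all after quantile normalization: Tnfaip8 (0.063) and Tnfaip8l2 (0.089) in WBC and the difference of effects of Ltb (0.040). Quantile normalization also moved Tnf in WBC from 0.25 to 0.60, Tnfrsf14 from 0.29 to 0.64, Tnfrsf26 from 0.18 to 0.34 and Tnip1 from -0.40 to -0.23. Leaving out a library moved other named differences by over 1.5 times: in WBC Tnfsf14 to 0.19 without TBI 3, Traf3ip1 from 0.20 to 0.10 without sham 1, Tnfaip8 to -0.08 without sham 4 and Tnfaip8l2 to -0.08 without sham 3, and in CA1 Tnfaip1 to -0.21 without TBI 1 and -0.09 without TBI 4, Tnfsf12 to 0.09 without sham 3 and Usp21 to 0.07 without sham 2. Counts at an unadjusted p under 0.05 moved more, and the cause was not tested. The CA1 members (2) became 1 with a minimum of 5 FPKM, median-ratio or quantile normalization, 4 with sample weights, and 1 to 3 when a library was left out (1 without TBI 3). The CA1 pathway list (1) became 0 with a minimum of 5 FPKM, 3 with no trend, 4 with sample weights, and 0 to 3 when a library was left out (0 without sham 2 or TBI 3, 2 without sham 1 or TBI 1, 3 without sham 3). The WBC members (4) became 7 after quantile normalization and 2 to 4 when a library was left out (2 without sham 2, sham 4, TBI 3 or TBI 4), and the WBC pathway list (9) 4 to 8 (4 without sham 3, 5 without sham 2 or TBI 1). The difference of effects (4) became 7 without a filter, 1 with a minimum of 5 FPKM and 3 to 5 when a library was left out.

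With a replicate block of equal numbers the counts were 4 for the CA1 members and 2 for the CA1 pathway list, 3 and 7 in WBC and 6 for the difference of effects, with 0 called. The numbers were not taken as pairs. Deviations of equally numbered sham and TBI libraries correlated at 0.02 to 0.24 in CA1 and -0.01 to 0.15 in WBC, and those of CA1 and WBC at 0.05 to 0.20, where all 8 correlated best with their own number, a hint from the data and not from the design. With no fragment counts, it is not known how much of the spread of low members is counting error.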
